A study of Sus scrofa with 23 samples.

Results

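The genes described here are LY96, CD14, 4 Toll-like receptor genes (TLR2, TLR3, TLR4 and TLR5), the adaptor genes MYD88 and TICAM1, the kinase gene IRAK4 and the inhibitor gene NFKBIA, 10 of 26687 gene symbols in the transcript table. They were chosen by symbol, and LY96 was on the list because its RNA tended to be higher in heterozygous than in wild-type pigs. That difference, and those of LY96 between CF and either of these labels alone, are therefore described and not tested. RNA was sequenced from the kidney cortex of 23 newborn pigs, 11 labelled CFTR-/- (CF), 6 labelled CFTR+/- (HET) and 6 labelled wild-type (WT), with 1 library per pig. The piglets came from CFTR+/- matings, and the study compared CF with non-CF pigs (the 6 HET and 6 WT pigs). Litter and sex are not in the labels, and CF, HET and WT below always mean libraries labelled so.

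Toll-like receptors recognize molecules from microbes and from damaged cells. TLR4 binds bacterial lipopolysaccharide only together with LY96 (also called MD-2), after CD14 and the lipopolysaccharide-binding protein LBP have handed the lipid over. Most of these receptors signal through MYD88 and the kinase IRAK4, TLR3 signals through TICAM1 (TRIF), and both routes lead to NF-kappaB, which is held in the cytoplasm by the inhibitor encoded by NFKBIA and switches that gene on again. In kidney the receptors are carried by resident macrophages and other blood-derived cells, and also by tubule and endothelial cells.

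Libraries held 32901281 to 52952273 estimated counts, with medians of 43636298 in CF, 47476461 in HET and 42709608.5 in WT. Levels are CPM (estimated counts scaled to a constant library total) after TMM scaling, and a count of 0 would allow up to 0.0567 to 0.0912 CPM by library. All 10 genes were above that in every library and passed the filter on low counts, as did 20921 genes. CFTR itself was highest in the libraries labelled CF (19.9 ± 3.21 CPM, SD, n = 11), lower in HET (12.6 ± 2.76, n = 6) and lowest in WT (2.26 ± 0.794, n = 6). CFTR RNA was thus most abundant in the libraries labelled as lacking a wild-type allele, which goes against the labels if the transcript is lost with the allele, and every direction below is one between labels. Pigs 1 to 6 and 12 to 18 (set A, 13 libraries) and pigs 7 to 11 and 19 to 23 (set B, 10 libraries) lay on separate sides of the second scaling axis of these libraries. The labels do not name the sets as batches, so values are also given within them. Non-CF libraries were 3 HET and 4 WT in set A and 3 HET and 2 WT in set B. A CF against non-CF value within a set therefore depends on that mix too. Markers of cortical tubules and podocytes summed to 7440 to 13900 CPM and those of endothelium to 523 to 782 CPM, and those of lymphoid cells to 2.73 to 5.02 CPM, of which CD3E, CD3D and MS4A1 failed the filter and CD2, CD79A, CD79B and NKG7 passed it. In bulk tissue, fewer cells of a type and less RNA per cell cannot be told apart.

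LY96 and CD14 are shown with their promoters because these were the 2 genes of the list with the larger differences between HET and WT libraries. LY96 (gene ID 100125555) lies on the minus strand of chromosome 4 at 61919806 to 61950712 in Sscrofa11.1, and CD14 (100037938) on the minus strand of chromosome 2 at 142348036 to 142349686. The 250 bases before each annotated start, chr4:61950713-61950962 and chr2:142349687-142349936, are written from 5′ to 3′ on the gene's strand. Capitals mark matches to the kappaB motif, to which NF-kappaB binds, or to GAGGAA, the core to which the myeloid factor PU.1 binds, on either strand.
LY96: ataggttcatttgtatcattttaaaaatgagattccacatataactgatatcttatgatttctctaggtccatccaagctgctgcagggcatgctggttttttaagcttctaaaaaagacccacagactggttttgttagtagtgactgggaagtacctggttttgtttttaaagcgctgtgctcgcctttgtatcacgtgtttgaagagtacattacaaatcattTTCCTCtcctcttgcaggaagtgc
CD14: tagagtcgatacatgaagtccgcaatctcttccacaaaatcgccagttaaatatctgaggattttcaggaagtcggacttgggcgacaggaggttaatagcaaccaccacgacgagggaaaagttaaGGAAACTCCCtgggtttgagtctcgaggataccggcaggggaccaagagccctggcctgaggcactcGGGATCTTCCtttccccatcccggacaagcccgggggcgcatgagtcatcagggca

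The CD14 window held 2 kappaB matches, 56 to 47 bases before the start on the same strand and 123 to 114 bases before it on the opposite strand, and no GAGGAA. The LY96 window held no kappaB match and 1 GAGGAA on the opposite strand, 24 to 19 bases before the start. Neither window held TTGCNNAA, a core bound by C/EBP factors, or the TATA box TATAAA. GC content was 38.8% for LY96 and 54.0% for CD14. Of 19569 windows of 250 bases before annotated starts, 14% held a kappaB match, 22% GAGGAA, 8.22% TTGCNNAA and 9.77% TATAAA. A match is a match of letters and no measured site.

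LY96 RNA was 2.63, 3.36, 4.24, 4.67, 4.67 and 4.05 CPM in WT pigs 12, 16, 17, 18, 22 and 23. In HET pigs 13, 14 and 15 it was 7.58, 7.06 and 4.38 CPM, and in HET pigs 19, 20 and 21 it was 11.7, 8.44 and 11.06 CPM. CF libraries ranged from 3.06 to 7.09 CPM with a median of 5.12. Each HET library was above the WT median, and HET pig 15 was the one HET library inside the WT range. HET pigs 19, 20 and 21 were the 3 highest of all 23 libraries. Mean levels were 8.37 ± 2.71 CPM in HET, 4.86 ± 1.24 in CF and 3.94 ± 0.80 in WT, a mean 2.13 times as high in HET as in WT and 1.72 times as high as in CF. These levels rest on 107 to 513 counts per library.

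**Figure D1:**
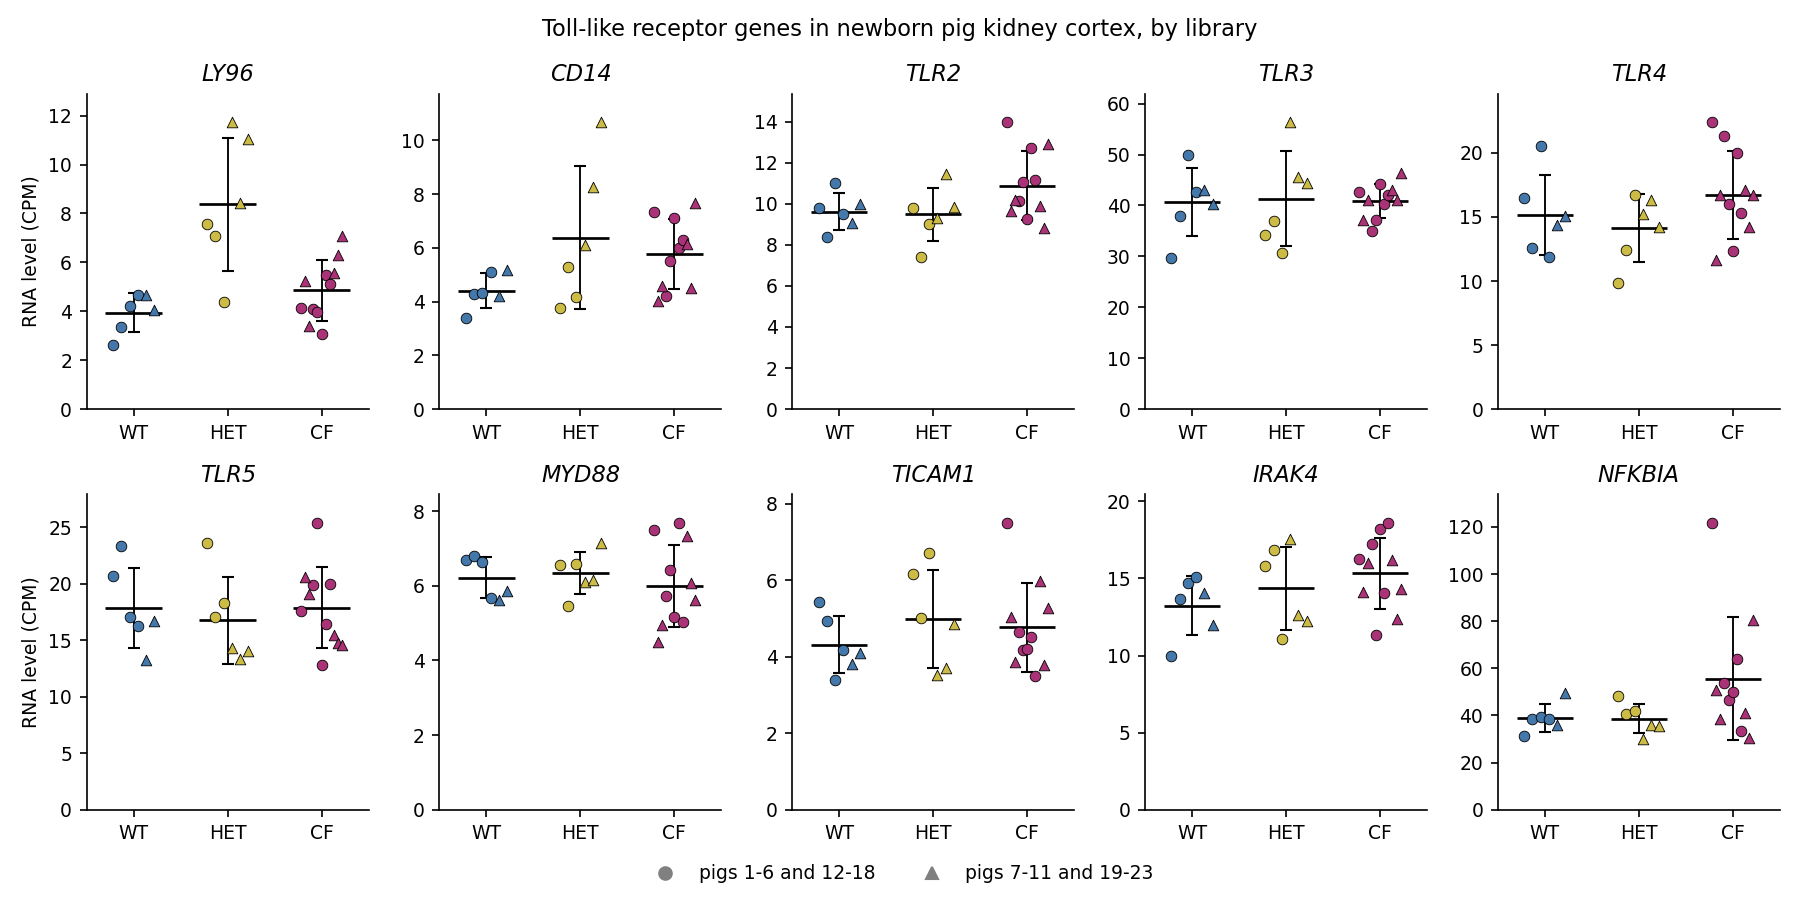
RNA level (CPM) of the 10 genes in each of the 23 libraries, by label (WT, n = 6; HET, n = 6; CF, n = 11). Horizontal lines are means, error bars are SD, and circles and triangles are pigs of set A and set B. For LY96 the 3 HET triangles (8.44 to 11.7 CPM) lie above all other libraries, and for NFKBIA a single CF circle reaches 122 CPM.

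On the log2 scale LY96 was 1.09 higher in HET than in WT, and 94 of the 20921 genes (0.449%) had a difference at least that large in that direction. This is the contrast that chose LY96, and the share is given as a description. The log2 difference was 0.77 within set A and 1.27 within set B, and it ran from 0.97 to 1.22 when single libraries were omitted. CF libraries lay 0.78 below HET, with 0 of 11 above the HET median, and 0.31 above WT. Against all non-CF libraries, which hold the highest and the lowest LY96 levels, the log2 fold change in CF was -0.34 (SE 0.217, 95% interval -0.79 to 0.11), with an adjusted p of 0.521 by edgeR's quasi-likelihood test. It was -0.16 in set A (adjusted p 0.881), -0.53 in set B (adjusted p 0.379) and -0.22 without HET pig 19. The non-CF libraries include those whose difference chose LY96. These values therefore depend in part on that difference, more so within the sets, where HET and WT numbers are unequal. No conclusion is drawn from their p-values.

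LY96 has 2 annotated transcripts of 603 and 686 bases, which share the same coding exons and differ in their noncoding ends. The 603-base transcript took a mean of 91.8% of the LY96 estimated counts over all libraries, with medians of 89.3% in CF, 94.8% in HET and 92.1% in WT. The ranges overlapped between all 3 labels. The higher level in HET libraries was therefore seen in the transcript that carried most LY96 counts in every group: its median, not scaled for depth, was 373 estimated counts in HET, 184 in CF and 163 in WT.

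CD14, which binds lipopolysaccharide at the cell surface, ranged from 3.37 to 5.17 CPM in WT (median 4.30), from 3.75 to 10.7 in HET (median 5.70) and from 4.01 to 7.66 in CF (median 5.98). HET pigs 20 and 21 were the 2 highest libraries, at 8.27 and 10.7 CPM, while HET pigs 13, 14 and 15 (3.75, 5.28 and 4.18 CPM) lay in or next to the WT range. On the log2 scale CD14 was 0.53 higher in HET than in WT, 0.04 within set A and 0.84 within set B.

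CD14 in CF libraries was within error of non-CF libraries over all pigs (log2 fold change 0.09, SE 0.169, adjusted p 0.873). The value was 0.49 in set A (adjusted p 0.270) and -0.35 in set B (adjusted p 0.522). In set B CD14 averaged 8.35 CPM in HET, 5.38 in CF and 4.69 in WT. Against WT alone the log2 fold change in CF was 0.38 (SE 0.191, adjusted p 0.366 by edgeR), and 0.21 to 0.51 over the alternatives. Of 11 CF libraries 9 lay above the WT median. Against HET alone it was -0.15 (adjusted p 0.833 by edgeR), and -0.63 to 0.47 over the alternatives. The difference between the sets in the CF against non-CF effect was tested as an interaction by edgeR. For CD14 it was -0.84 on the log2 scale (SE 0.288, unadjusted p 0.00717, adjusted p 0.286), which did not pass. Of the 10 genes 0 did, beside 0.0191% of all genes tested. At an unadjusted p under 0.05 CD14 was the 1 gene of the 10, beside 10.1% of all genes. This interaction pools HET and WT, and CD14 averaged 4.40 CPM in HET of set A and 8.35 in HET of set B. It therefore cannot tell a change in CF from one in HET. TLR4, the receptor that LY96 and CD14 serve, ranged from 11.9 to 20.5 CPM in WT, from 9.83 to 16.7 in HET and from 11.6 to 22.4 in CF, and its log2 fold change in CF against non-CF was 0.19 (SE 0.115, adjusted p 0.494), with 0.32 in set A and 0.03 in set B. TLR4 was 0.10 lower in HET than in WT on the log2 scale, while LY96 and CD14 were higher there.

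Among the other receptors, TLR2, which recognizes bacterial lipoproteins together with TLR1 or TLR6, ranged from 8.80 to 13.97 CPM in CF, from 7.43 to 11.5 in HET and from 8.39 to 11.0 in WT. CF pigs 1, 9 and 5 were the 3 highest libraries. Its log2 fold change in CF against non-CF was 0.19 (SE 0.0825, unadjusted p 0.0307, adjusted p 0.302), with 9 of 11 CF libraries above the non-CF median, and it was 0.30 in set A and 0.06 in set B. TLR3, the receptor for double-stranded RNA, ranged from 34.9 to 46.4 CPM in CF and from 29.7 to 56.4 in non-CF, with a log2 fold change of 0.00 (95% interval -0.18 to 0.17, adjusted p 0.994), 0.11 in set A and -0.13 in set B. TLR5, the receptor for bacterial flagellin, ranged from 12.8 to 25.4 CPM in CF and from 13.3 to 23.6 in non-CF, with a log2 fold change of 0.04 (95% interval -0.19 to 0.28, adjusted p 0.923), -0.055 in set A and 0.24 in set B.

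The adaptors and the kinase had smaller fold changes than NFKBIA. MYD88 differed by -0.07 on the log2 scale in CF against non-CF (95% interval -0.25 to 0.12, adjusted p 0.814), TICAM1 by 0.04 (95% interval -0.24 to 0.31, adjusted p 0.948) and IRAK4 by 0.15 (95% interval -0.05 to 0.35, adjusted p 0.521). IRAK4 was above the non-CF median in 9 of 11 CF libraries. In sets A and B the values were -0.02 and -0.11 for MYD88, -0.11 and 0.27 for TICAM1, and 0.205 and 0.10 for IRAK4. MYD88 lies inside the span of ACAA1 on the opposite strand; the libraries were stranded, and whether the counting used strand is not given in the sources used here. TICAM1 counts were divided between transcripts of 2674 and 2925 bases, with medians of 65.1% on the shorter one in CF, 52.6% in HET and 52.9% in WT and overlapping ranges.

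NFKBIA, which encodes the inhibitor of NF-kappaB, had the largest difference of the 10 in CF against non-CF. Its first exon overlaps a noncoding gene on the opposite strand. It ranged from 31.4 to 49.4 CPM in WT (median 38.5), from 30 to 48.1 in HET (median 38.3) and from 30.6 to 122 in CF (median 50.0). CF pigs 1, 9 and 5 had 122, 80.5 and 63.8 CPM, and CF pigs 8 and 6 had 30.6 and 33.5, so the labels overlapped. The log2 fold change in CF against non-CF was 0.52 (SE 0.171, 95% interval 0.17 to 0.87, unadjusted p 0.00547, adjusted p 0.151), with 8 of 11 CF libraries above the non-CF median. It was 0.34 without CF pig 1 (adjusted p 0.217), and it was 0.63 in set A and 0.38 in set B. Against WT and against HET the difference was 0.52 in each case (adjusted p 0.271 and 0.436), and these comparisons share the CF libraries. Against WT it was 0.73 in set A, 0.19 in set B (adjusted p 0.857) and 0.33 without CF pig 1, and against HET it was 0.34 without CF pig 1.

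No member passed an adjusted p of 0.05 in CF against non-CF: 0 of 10, beside 0.349% of all genes tested. At an unadjusted p under 0.05, 2 of 10 (TLR2 and NFKBIA) were past, beside 13.7% of all genes. By the exact Mann-Whitney U test, which the study used, these same 2 had unadjusted p of 0.0439 and 0.0374, beside 11.6% of all genes, and 0 of 10 passed adjustment, beside 0.22%. Without LY96, 0 of 9 were called in CF against WT, beside 0.349% of all genes, and 1 of 9 (NFKBIA) had an unadjusted p under 0.05, beside 14.1%. In CF against HET 0 of 9 were called, beside 0.0% of all genes by edgeR (65 genes by DESeq2), and again NFKBIA alone had an unadjusted p under 0.05, beside 9.89%. The list's median log2 fold change in CF against non-CF was 0.07, with 7 genes higher and 3 lower, and the median of all genes was 0.00. The 95% interval lay within 0.5 log2 units of no difference for 8 of the 10 genes and within 1 unit for all 10.

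**Figure D2:**
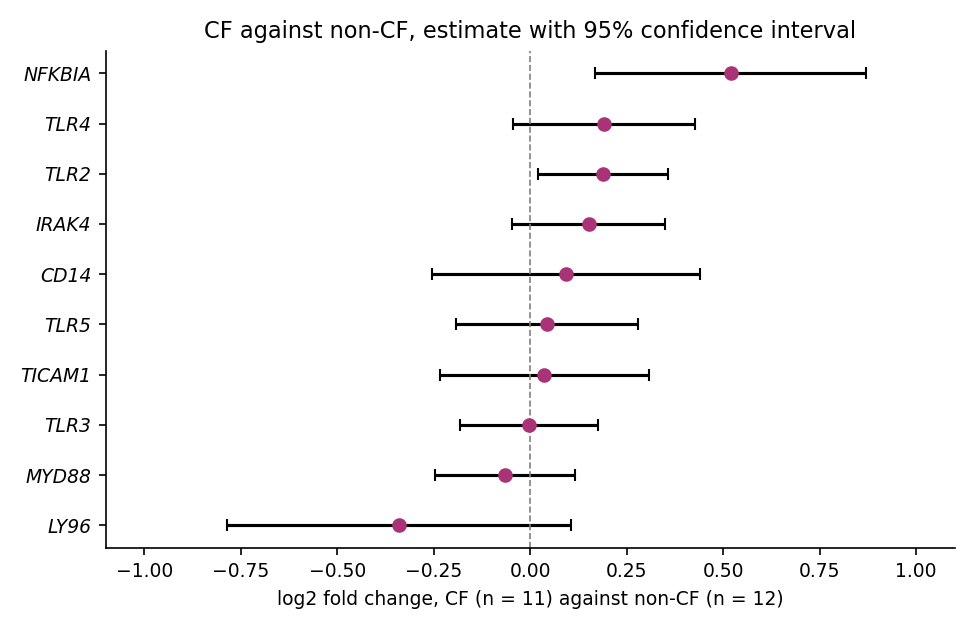
Log2 fold change of each of the 10 genes in CF (n = 11) against non-CF (n = 12) libraries, with 95% confidence intervals from edgeR. The intervals of NFKBIA (0.17 to 0.87) and TLR2 (0.02 to 0.36) lie above 0 before adjustment over all genes, and that of LY96 is the widest.

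Per transcript length (TPM), NFKBIA was the most abundant of the 10 (median 55.5 TPM over 23 libraries), followed by TLR3 (14.2), IRAK4 (12.3), LY96 (11.5), MYD88 (8.81), TLR4 (5.11), CD14 (4.06), TLR5 (3.599), TLR2 (2.66) and TICAM1 (1.78). NFKBIA exceeded TLR3, and MYD88 exceeded TLR4, in 23 of 23 libraries. IRAK4 and LY96, and likewise CD14 and TLR5, kept their order in 14 of 23 libraries, so those neighbours are not separated. The annotated transcripts of NFKBIA and IRAK4 hold coding exons only, which their TPM levels depend on. LY96 at a median of 11.5 TPM exceeded its partner TLR4 at 5.11 TPM. Of the other receptor genes TLR6 (2.23 TPM) and TLR1 (1.48) came next, TLR8 had 0.978, TLR9 0.375, TLR7 0.304 and TLR10 0.274 TPM, and LY86, the relative of LY96 that partners CD180, had 0.531.

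Set beside other genes of the same libraries, the 3 HET pigs with the highest LY96 also had the highest levels of the neutrophil genes S100A8, S100A9 and S100A12, whose products are calcium-binding proteins. S100A8 and S100A9 were chosen after their values were seen. S100A8 was 9.69 to 16.97 CPM in HET pigs 19, 20 and 21 and 0.4004 to 7.53 CPM in the other 20 libraries. S100A9 was 15.8 to 30.4 CPM in these pigs and at most 14.2 in the others, and S100A12 was 12.8 to 19.3 CPM against at most 10.3. LBP, the acute-phase protein that loads CD14, was 50.2 to 55.2 CPM in these pigs, and 1 of the other 20 libraries, a CF library at 68.8 CPM, was above them. In HET pigs 13, 14 and 15 LBP averaged 1.80 CPM, so that the 2 sets of HET libraries stood further apart for LBP than for any of the 10 genes. NFKBIA was 30 to 36.0 CPM in HET pigs 19, 20 and 21, in the lower part of all libraries.

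The summed neutrophil markers reached 74.5 CPM in HET, against at most 38.6 in CF and 34.9 in WT, and MPO, a defining neutrophil gene, failed the filter. For 2 other neutrophil markers the HET and WT means lay closer. CSF3R, the receptor for the neutrophil growth factor G-CSF, averaged 3.98 CPM in HET (2.75 in set A and 5.21 in set B) and 4.32 in WT, and ELANE, neutrophil elastase, averaged 0.989 CPM in HET (1.20 in set A and 0.781 in set B) and 0.963 in WT. In HET pigs 13, 14 and 15 LY96 was 7.58, 7.06 and 4.38 CPM, the last inside the WT range. S100A8 was 1.596, 2.292 and 0.4004 CPM there, the last below the WT range of 1.27 to 7.24 and the others inside it. The part of the neutrophil genes in the LY96 level was not tested. Within HET, 6 of the 10 genes did not overlap between the 2 sets of 3 pigs, beside 25.4% of all genes tested: LY96, CD14 and TLR3 were higher in set B, and TLR5, TICAM1 and NFKBIA were lower. None of the 10 was separated by set within CF, beside 1.99% of all genes, or within WT, beside 27.9%.

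**Figure D3:**
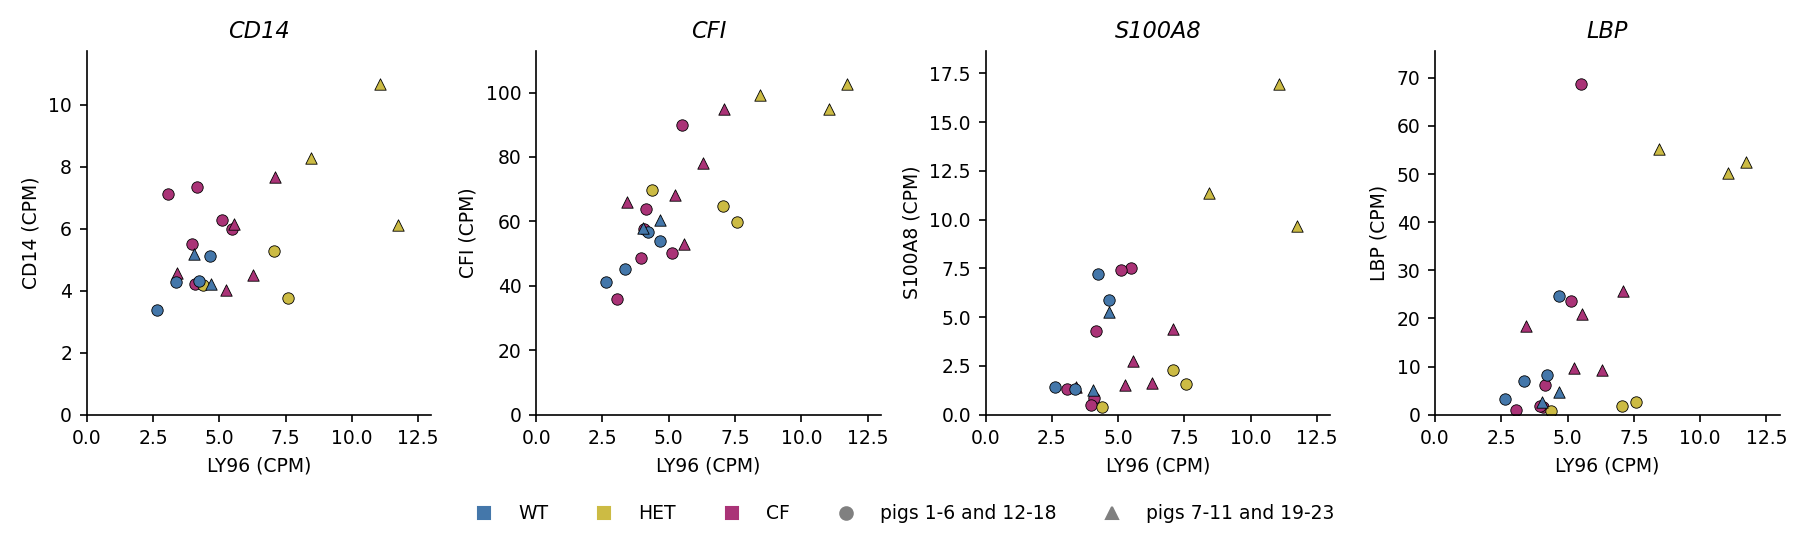
Levels (CPM) of CD14, CFI, S100A8 and LBP against LY96 (CPM) in the 23 libraries, coloured by label, with circles for set A and triangles for set B. The 3 HET triangles hold the highest LY96 and S100A8 levels (9.69 to 16.97 CPM for S100A8), and CFI has a Pearson's r of 0.80 with LY96 over all 23 libraries.

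Among the genes whose log2 CPM was most like that of LY96 over the 23 libraries, by Pearson's r and given as a description, were CFI (complement factor I, a protease that inactivates complement, r = 0.80), LOC100520923 (an estradiol 17-beta-dehydrogenase 11 gene, 0.78) and TMIGD1 (a tubule adhesion protein, 0.75). For CFI r was 0.66 in set A, 0.83 in set B and 0.705 with the mean of each label removed, and for TMIGD1 it was 0.69, 0.72 and 0.58. CFI averaged 81.9 CPM in HET, 64.3 in CF and 52.5 in WT. Within the pathway r with LY96 was 0.56 for LBP, ranked 432 of 20920 genes, and 0.50 for CD14, ranked 881. It was 0.47 for TLR3, -0.185 for TLR4 and -0.40 for TLR5. The libraries share scaling, depth and set, which enter each of these values.

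Across libraries the mean log2 level of 14 myeloid markers, macrophage genes among them, was compared with each gene. On log2 CPM over all libraries the values for 4 genes lay close together. For MYD88 Pearson's r was 0.453 (permutation p 0.0283, adjusted p 0.0977; Spearman rho 0.475, permutation p 0.0232, adjusted p 0.137), and r was 0.467 without the 2 libraries farthest from the median. Values of r were 0.450 for TLR4, 0.441 for CD14 and 0.433 for TLR2, and 0.433, 0.356 and 0.277 without those 2 libraries, and 0 of 10 genes passed adjustment over the 10. Their order changed with the scale and the libraries: the highest r was that of TLR3 on log2 TPM (0.586, adjusted p 0.0318, permutation test), of TLR2 in set A (0.58, adjusted p 0.376) and of CD14 in set B (0.767, adjusted p 0.127). For LY96 r was 0.132 (permutation p 0.548, adjusted p 0.777; rho 0.032, permutation p 0.886, adjusted p 0.886), -0.24 in set A and 0.55 in set B. The summed myeloid markers were 171 to 244 CPM in HET, 175 to 262 in WT and 165 to 297 in CF, and no marker was at 0 in every library.

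The rest of the pathway was read from lists of 77 genes by role, of which 74 were tested. In CF against non-CF 0 of 74 were called by edgeR, beside 0.349% of all genes (1 by DESeq2, TRAF6, beside 2.48%), the smallest adjusted p being 0.0869 for TRAF6, and 21 had an unadjusted p under 0.05, 14 of them higher, beside 13.7% of all genes in either direction. In CF against WT and CF against HET the smallest adjusted p were 0.0858 and 0.307. The median log2 fold change of the 74 in CF against non-CF was 0.03, with 42 higher and 32 lower, so that 56.8% were higher, beside 49.8% of all genes tested.

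Co-receptors and receptor chaperones had 9 of 10 genes lower in CF than in non-CF (0 called, median log2 fold change -0.16). HSP90B1, the chaperone that folds most Toll-like receptors, averaged 668 CPM in CF and 836 in non-CF (log2 fold change -0.32, SE 0.103, adjusted p 0.138), with 1 of 11 CF libraries above the non-CF median. The value was -0.19 in set A (adjusted p 0.753) and -0.49 in set B (adjusted p 0.0318), and the difference of the set effects had an adjusted p of 0.640 by edgeR. Its co-chaperone CNPY3 had -0.18 (adjusted p 0.349) and CD180, a receptor relative of B cells, -0.34 (adjusted p 0.346). Of the 6 other Toll-like receptors 3 were higher and 3 lower (0 called), and the endosomal receptor TLR8 had -0.22 (adjusted p 0.265), TLR7 -0.25 (0.678; 0.09 in set A and -0.81 in set B) and TLR1 0.08 (0.761).

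Adaptors and kinases had 9 genes higher and 10 lower (0 of 19 called, median -0.01). TRAF6, the ubiquitin ligase downstream of IRAK4, averaged 69.3 CPM in CF and 62.2 in non-CF, a log2 fold change of 0.16 (SE 0.043), and all 11 CF libraries lay above the non-CF median. TAB3, an adaptor of the next kinase, had 0.18 (adjusted p 0.128), 0.28 in set A and 0.07 in set B, and BTK, a kinase of blood cells, -0.55 (adjusted p 0.190). Of the transcription factors 7 of 10 were higher (0 called), with JUN at 1.09 (adjusted p 0.237), NFKB1 at 0.18 (0.395) and RELB at 0.37 (0.421). JUN was 338 CPM in CF pig 1 and had a median of 25.6 in CF and 25.2 in non-CF.

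Inhibitors and feedback genes had 11 of 14 higher (0 called, median 0.12) and cytokine and adhesion targets 11 of 15 (0 called, median 0.34). TNFAIP3 (A20), which like NFKBIA is switched on by NF-kappaB and shuts it off, ranged from 9.95 to 69.3 CPM in CF (median 15.3) and from 9.77 to 15.2 in non-CF (median 12.01). Its log2 fold change was 0.92 (SE 0.280, adjusted p 0.120). NFKBIZ had 0.56 (adjusted p 0.138), PELI1 0.14 (0.235), the survival gene BIRC3 0.34 (0.130), the cytokine gene IL1B 1.07 (0.167) and the endothelial adhesion gene SELE 1.74 (0.194). Single CF libraries carried much of several of these fold changes. SELE was above the non-CF median in 5 of 11 CF libraries, and its median was 0.802 CPM in CF and 1.02 in non-CF. Without CF pig 9 its log2 fold change was 0.49 and that of TNFAIP3 0.60. Without CF pig 1 the log2 fold change was 0.465 for IL1B, 0.31 for NFKBIZ and 0.055 for JUN. In sets A and B the values were 1.60 and 0.24 for IL1B, and 0.49 and 0.15 for BIRC3. As with the members, 0 of 74 pathway genes passed edgeR's test of the difference between the set effects, beside 0.0191% of all genes. The smallest adjusted p was 0.0648, for SAA3, which passed with DESeq2 (adjusted p 0.00525). The list medians moved with the same pigs. The median log2 fold change of the target list was 0.13 without CF pig 9, and without CF pig 1 that of the inhibitors and feedback genes was 0.06 and that of the transcription factors 0.004, against 0.11 with all libraries. TNF and IFNB1 failed the filter.

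**Figure D4:**
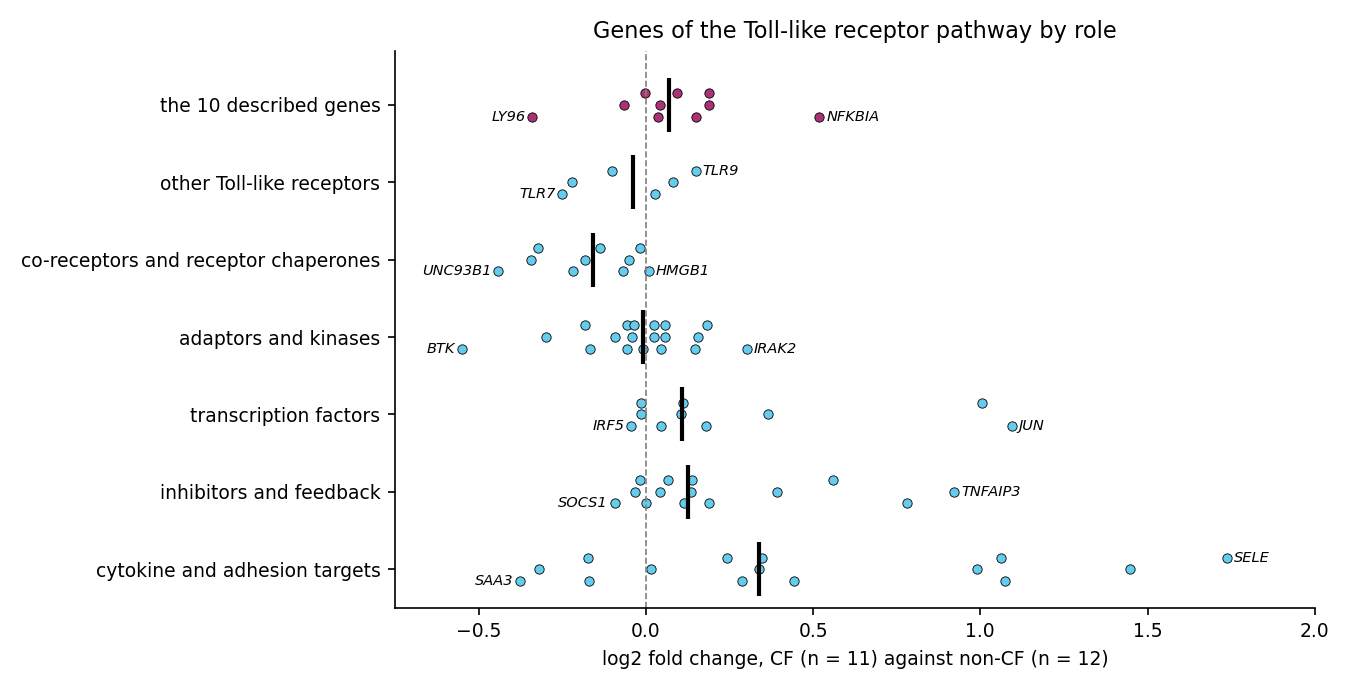
Log2 fold change in CF (n = 11) against non-CF (n = 12) libraries for each tested gene of the pathway, 1 point per gene, grouped by role, with the median of each group as a bar and the lowest and highest gene of each group named. Medians run from -0.16 for co-receptors and receptor chaperones to 0.34 for cytokine and adhesion targets, and no point passed an adjusted p of 0.05.

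The CF pigs that were highest for NFKBIA were also highest for several of these genes. CF pigs 1, 9 and 5 were the 3 highest of 23 libraries for NFKBIA, TNFAIP3, NFKBIZ, IL1B, CXCL8, BIRC3 and TLR2. For JUN, FOS and ATF3 CF pig 1 was highest, while CF pig 9 ranked 4, 6 and 5 and CF pig 5 ranked 5, 7 and 4. IL1B was 8.68 CPM in CF pig 1, 2.55 in CF pig 9 and 2.63 in CF pig 5, against a non-CF range of 0.626 to 1.57. SELE was 28.9 CPM in CF pig 9 and 1.94 in CF pig 1. CF pig 1 also had the highest FOS (416 CPM), an immediate early gene, followed by WT pig 12 (155) and HET pig 20 (61.8). Without these 3 libraries the log2 fold change of NFKBIA in CF against non-CF was 0.30 (adjusted p 0.350), and that of TLR2 0.18 (adjusted p 0.330). The part of these libraries in the NFKBIA level beyond that was not tested. Over 23 libraries r with NFKBIA was 0.82 for IL1B, 0.78 for TNFAIP3, 0.745 for BIRC3, 0.72 for NFKBIZ, 0.66 for TLR2 and 0.62 for JUN, as a description. For ATF3, TICAM1 and FOS it was 0.59, 0.56 and 0.34. Without the 3 libraries highest in FOS it was 0.635, 0.66, 0.49, 0.46, 0.58, 0.32, 0.36, 0.415 and 0.23 in the same order.

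The other members are listed by place in Sscrofa11.1. TLR2 (gene ID 396623) is on chromosome 8 at 75416257 to 75428370, TLR3 (100037937) on chromosome 15 at 46966262 to 46977774, TLR4 (399541) on chromosome 1 at 258044610 to 258054641 and TLR5 (100144476) on chromosome 10 at 19387666 to 19410024. MYD88 (396646) is on chromosome 13 at 22976951 to 22979568, TICAM1 (100623776) on chromosome 2 at 74004566 to 74021100, IRAK4 (100127166) on chromosome 5 at 74842184 to 74858125 and NFKBIA (406188) on chromosome 7 at 64508119 to 64510754. Each gene's value is the sum over its annotated transcripts.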

How the data were processed

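Kidney cortex RNA of 23 newborn pigs was depleted of ribosomal RNA and sequenced from stranded libraries. The authors pseudoaligned the reads to Sscrofa11.1 transcripts with kallisto and deposited estimated counts per transcript, not normalized. The authors also deposited TPM, which divides by effective length and sums to a constant, and was used to compare genes and transcripts. Estimated counts were summed per symbol and rounded. The genes tested passed filterByExpr and were fitted with edgeR 4.0.16 (TMM, quasi-likelihood test, Benjamini-Hochberg over all 20921 genes, threshold 0.05) on R 4.3.3. CF was compared with non-CF, and the 3 labels in a second fit. LY96 was not tested in CF against WT, CF against HET or HET against WT, and no member was tested in HET against WT. Alternatives were DESeq2 1.42.0, limma 3.58.1 (voom), other scalings and filters, pig set as a term, each set alone, each library left out and the exact Mann-Whitney U test. Leaving out the 3 libraries highest in FOS was chosen after seeing the data. Correlations with myeloid markers used 100000 permutations.

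The members and lists were chosen with earlier results of these data known. Besides the members and relatives of LY96, the text names in each list the genes called and the 3 with the smallest p, marker genes, and the 5 genes most like LY96, of which 2 are withheld and not reported here. S100A8, S100A9, CXCL8, FOS, SAA3 and other values beside these were named after their values were seen. Fits were tested on simulated data. Litters are not recorded, so p-values measure the spread between these pigs. Promoter windows were read from the reference genome with pysam 0.24.0 and the kappaB motif was searched on both strands, with overlaps allowed. The limits for a count of 0 (3 counts) cover counting error only.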

Additional observations from a re-analysis of the deposited data

How the results depend on the processing

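The count of genes called stayed at 0 of 10 in CF against non-CF and at 0 of 9 (without LY96) in CF against WT and CF against HET under every alternative that was run, also with each library left out in turn (0 to 0), and the interaction stayed at 0 of 10 with DESeq2. The pathway count in CF against non-CF was 0, and 0 to 0 with each library left out, but 1 with DESeq2 (TRAF6) and 2 in set B alone (HSP90B1 and SAA3). For the interaction the pathway count was 0 of 74 by edgeR, while SAA3 passed with DESeq2 (adjusted p 0.00525). Over all genes the interaction called 4 of 20921 by edgeR and 153 of 18452 with DESeq2. The relation with myeloid markers passed in 2 genes on the log2 TPM scale (pseudocount 0.1; TLR2, adjusted p 0.0438, and TLR3, 0.0318) against 0 on CPM. The log2 difference of LY96 in HET against WT ran from 0.77 to 1.27 over alternatives and from 0.97 to 1.22 with libraries left out, and that of CD14 was 0.04 in set A alone. Reversed signs in CF against non-CF were -0.35 for CD14 in set B, 0.016 for TLR3 with limma-voom, 0.003 with the filter of 1 CPM in 6 libraries and 0.11 in set A, -0.055 for TLR5 in set A, and -0.11 for TICAM1 in set A and -0.053 without the 3 libraries highest in FOS. CD14 in CF against HET was 0.47 in set A. With libraries left out, TLR3 ran from -0.037 to 0.047, TLR5 from -0.026 to 0.092, TICAM1 from -0.049 to 0.092 and CD14 in CF against HET from -0.263 to 0.058. The cause of these changes was not tested. The adjusted p of NFKBIA in CF against non-CF ran from 0.065 (DESeq2) to 0.406.

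Over all genes 73 were called in CF against non-CF (51 higher, 22 lower), 101 with upper-quartile scaling (48 higher, 53 lower), 488 with DESeq2, 46 with limma-voom, 150 with the stricter filter, 148 with set as a term, 0 in set A, 473 in set B, 4 without the 3 libraries highest in FOS and 17 to 203 with each library left out. For CF against WT 73 genes were called (32 higher, 41 lower), 139 with upper-quartile scaling (36 higher, 103 lower), 576 with DESeq2, 140 with the stricter filter, 186 with set as a term, 33 in set A, 18 without those 3 libraries and 20 to 203 with each left out. For CF against HET the count was 0, and 65 with DESeq2, 535 in set B and 0 to 3 with each left out. No paired analysis was possible because each pig has a number of its own and the labels give no litter. At 107 to 513 counts per library for LY96 the spread between pigs, and not the depth alone, sets the width of its interval.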

Other observations

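SAA3, an acute-phase gene of the target list, had unlike levels in the sets of pigs. It averaged 5.08 CPM in CF libraries of set A and 0.185 CPM in CF libraries of set B, without overlap, and 3.98 and 6.66 CPM in HET libraries of sets A and B. In WT libraries it averaged 2.93 CPM in set A and 0.378 CPM in set B, with overlap. In set B it had 0, 2, 3, 7 and 28 counts in CF libraries and 4 and 26 in the 2 WT libraries. The lowest of these lie at or below the 3 counts taken as the limit for a count of 0. Within set B the log2 difference of SAA3 in CF against HET was -5.14 (SE 0.674, adjusted p 0.00294 by edgeR), a size that rests on those low counts. Within set A it was 0.36 (SE 0.429, adjusted p 0.996). The difference between the sets in its CF against non-CF effect was -5.05 by edgeR (SE 1.04, adjusted p 0.0648), which did not pass. By DESeq2 it was -5.07 (SE 1.14, adjusted p 0.00525), which passed. LBP within set B was 2.24 higher on the log2 scale in CF than in the 2 WT libraries (SE 0.405, adjusted p 0.0415 by edgeR). It was lower in CF than in HET there, a log2 difference of -1.64 (SE 0.289, adjusted p 0.0125). Within set A LBP differed by 0.68 (SE 0.980, adjusted p 0.823) in CF against WT and by 3.26 (SE 1.28, adjusted p 0.877) in CF against HET. These values were picked after they were seen.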
